A study of Mactra quadrangularis with 2 samples.

Results

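The protein kinases and protein phosphatases described here are transcripts from Mactra veneriformis, a clam whose organism label reads Mactra quadrangularis, and were sampled in its digestive gland. The treated clams lived for 3 days in aquaria dosed to a nominal 5 µg/L of BDE-47, a brominated diphenyl ether used as a flame retardant, which was carried in DMSO at 0.05% v/v. The control clams received the same final share of DMSO without BDE-47. Each group had 3 replicates of 30 clams, with the glands of 30 clams pooled for RNA, per the series text, whereas the tables hold 1 library of poly(A) RNA per group, so no difference given here has a replicate check. Fragments were counted on unigenes, which are contigs assembled from the reads themselves. The members are those unigenes in the authors' table of called and described unigenes whose first Nr entry or Swiss-Prot name held a phrase for a protein kinase or a protein phosphatase, such as tyrosine kinase, serine/threonine or dual specificity. Names with cyclin, myosin, titin, mitochondrial, heat shock or ankyrin repeat were dropped. The phrases matched 118 unigenes and 5 were dropped, which left 113 of the 4337 described unigenes, of the 17625 called unigenes and of 124752 unigenes in all. Uncalled unigenes carried no description, so kinases and phosphatases with a similar level in both libraries are not among the 113.

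Protein kinases transfer a phosphate from ATP to serine, threonine or tyrosine residues of other proteins, and protein phosphatases remove it. Chains of kinases carry signals from receptors at the cell surface to enzymes and transcription factors, and phosphatases set how long those signals last. In the digestive gland of bivalves, which takes up and breaks down food and handles foreign compounds, such signals are known to act in energy balance, stress responses and cell renewal.

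The libraries held 15.6 M (control) and 15.9 M (BDE-47) counted fragments. The members took 17655 fragments (0.113%) of the control library and 10213 (0.0640%) of the BDE-47 library. A unigene was counted as higher or lower in BDE-47 when its ratio of FPKM (fragments scaled to unigene length and library total) plus 0.1 was at least 2-fold, when it had at least 20 fragments over both libraries, and when the exact 95% interval of the fragment ratio excluded 1. This interval covers counting error only, since PCR copies were not told apart and the pools are not replicated. Paired values are given with the control first and BDE-47 second. Libraries were scaled to their totals, and TMM and median ratio scaling, which use the bulk of the unigenes instead, are named where they end the call of a named unigene. By this rule 34 members were higher, 73 were lower and 6 were not past the rule, 5 of them for having under 20 fragments. Over the 89164 unigenes that reached 20 fragments, 12.4% were higher and 16.2% were lower, with a median log2 ratio of -0.11. Because every member was called by the authors, its passing is no result. Among the 4337 described called unigenes, 33.9% were higher and 60.1% lower, with a median log2 ratio of -1.19 against -1.25 for the members. The share of higher unigenes among those past the rule was 31.8% of the members and 36.1% of the described called unigenes, so the direction of the members lay near the background. In pooled tissue, fewer cells of a type and less RNA per cell cannot be told apart.

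The authors' own calls put 35 members up and 78 down, which is 31% up against 36.4% of the described called unigenes. Of all unigenes, called or not, they put 6.09% up and 8.04% down. All calls in the authors' deposited table lie within an FDR of 0.001 and beyond a log2 ratio of 1 in size. The member nearest to the FDR limit was CL19015.Contig1, with 0.000943 in the authors' deposited table, and CL2678.Contig4, a contig of a cluster that holds a member, lay just outside with 0.00121. Nearest to the ratio limit was CL8665.Contig1, at -1.01 in the authors' deposited table, while the uncalled CL9157.Contig7 had -0.90 there.

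**Figure D1:**
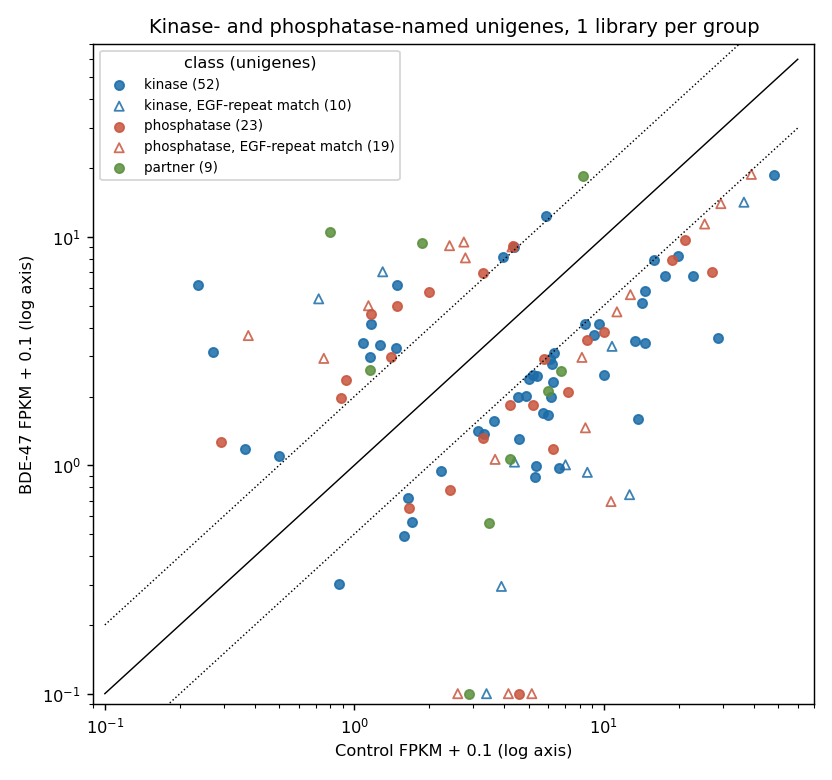
Level of each of the 113 unigenes in the control (x axis) and BDE-47 library (y axis), as FPKM plus 0.1 on log axes, with 1 library per group; colours mark kinases, phosphatases and partners, open triangles the 29 EGF-repeat unigenes (named for a kinase or phosphatase by Nr alone), the solid line equal levels and the dotted lines a 2-fold difference. Most points lie under the lower dotted line, and 6 unigenes sit at the bottom edge with 0 fragments in BDE-47.

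The 113 unigenes split by name into 62 kinases, 42 phosphatases and 9 kinase partners, which are subunits, binding proteins and substrates. Of the kinases, 14 were higher and 46 lower, with a median log2 ratio of -1.28 and fragments that summed to 11484 in the control library and 5500 with BDE-47. Of the phosphatases, 16 were higher and 23 lower, with a median of -1.18 and sums of 5286 and 3430. Of the partners, 4 were higher and 4 lower, with sums of 885 and 1283. Whether the split differs between kinases and phosphatases was not tested, since there is 1 library per group and some unigenes are contigs of the same cluster.

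The names rest on unequal evidence. A kinase or phosphatase word stood in both the Nr and the Swiss-Prot name of 49 unigenes, in the Swiss-Prot name alone of 28 and in the Nr name alone of 35. The remaining unigene is named for STYXL1, a phosphatase-like protein known in mammals to lack activity. A kinase or phosphatase word also stood in the COG, KEGG or GO annotation of 46 of the 49, of 8 of the 28 and of 0 of the 35. Of the 28, 17 had a KEGG definition, and in 9 of these it named a protein without a kinase or phosphatase word, intestinal mucin-2 for 3 of them. The first Nr entry was from the oyster Crassostrea gigas for 77 members, and 22 had a Swiss-Prot match in the slime mould Dictyostelium, 5 of them higher and 17 lower.

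A set of 29 unigenes went against its label. These were named by Nr alone for the receptor phosphatases PTPRT or PTPRZ (19 unigenes) or the receptor kinase Tie-1 (10 unigenes), while their Swiss-Prot match, where one was given, was mostly a protein built of EGF-like repeats such as SCARF1, MEGF10, CED-1 or PEAR1. SCARF1 is a scavenger receptor and MEGF10 an engulfment receptor in mammals, and CED-1 is the receptor by which Caenorhabditis elegans cells engulf dying cells. None of the 29 had a kinase or phosphatase word in COG, KEGG or GO, so they are called EGF-repeat unigenes from here on. Their median length was 437 bases, against 1920 bases for the other 84 members. Of the 29, 9 were higher, 18 lower and 2 not past the rule. Of the other 84, 25 were higher, 55 lower and 4 not past the rule, with a median log2 ratio of -1.22. Without the 29, kinases had 12 higher and 39 lower of 52, and phosphatases 9 higher and 12 lower of 23. The set was drawn from the names after these had been read.

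**Figure D2:**
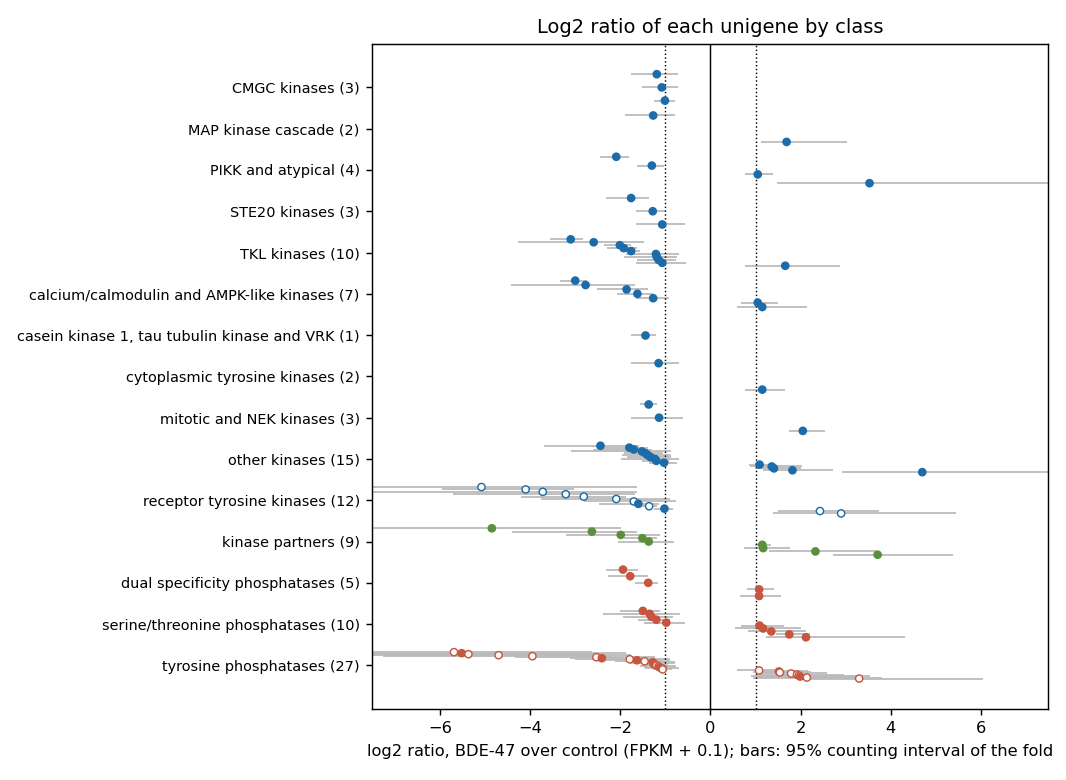
Log2 ratio of BDE-47 over control (FPKM plus 0.1) for each of the 113 unigenes by class, with grey bars for the 95% counting interval of the fragment ratio (cut at the axis ends), blue for kinases, green for partners and red for phosphatases, open circles for EGF-repeat unigenes, dotted lines at the 2-fold limits and class sizes in brackets. All 3 CMGC and all 3 STE20 kinases (1 and 2 of them still past the rule under median ratio scaling) and 9 of 10 TKL kinases lie on the lower side, while serine/threonine phosphatases lie on both.

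Among the kinases, the TKL group holds relatives of Raf, RIPK and the mixed-lineage kinases that often act high in a signalling chain. It had 1 higher and 9 lower unigenes of 10 (8 lower under median ratio scaling), against 33.9% higher and 60.1% lower among the described called unigenes. The clusters CL17699 and CL6155 held 2 of these unigenes each. The summed clusters CL6155, CL6483 (523 control and 415 BDE-47 fragments) and CL19963 were not past the rule. The fragments of the 10 unigenes summed to 2622 in the control library and 717 with BDE-47. The largest part of that sum came from 4 unigenes named by Nr for CTR1, a Raf-like kinase known from ethylene signalling in plants, whose Swiss-Prot matches are the Dictyostelium kinases DDB_G0267514 and drkA. CL17699.Contig1 had 615 control and 69 BDE-47 fragments (13.6 and 1.49 FPKM), and was 9.10-fold lower (95% counting interval 7.09 to 11.9). CL17699.Contig2 had 472 and 116 fragments and was 4.16-fold lower (3.38 to 5.14). All 3 contigs of that cluster were lower, and their sum was 6.17-fold lower (5.30 to 7.23). The unclustered Unigene32478 had 379 and 100 fragments, and CL12321.Contig1 had 696 and 207. The 4 CTR1-named unigenes thus took 2162 fragments in the control library and 492 under BDE-47, and all 4 had a kinase word in COG, KEGG or GO.

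RIPK1 is a mammalian kinase that relays signals from tumour necrosis factor receptors. The RIPK1-like contig CL6155.Contig2 had 85 control fragments and 36 in BDE-47, and CL6155.Contig4 had 149 and 67. A longer contig of the same cluster, CL6155.Contig3, had 290 and 430 fragments, and the summed cluster was level, with 567 and 565. A roco5-like unigene, CL2675.Contig2, had 88 and 42 fragments and its cluster was lower as a whole, with 107 and 43. Under median ratio scaling the contig's log2 ratio of -1.07 became -0.94, not past the rule. The only higher TKL unigene, Unigene44223, had 11 and 38 fragments, while CL19963.Contig2 had 39 and 6, although both matched the Dictyostelium kinase shkD by Swiss-Prot. The KEGG entry of both was intestinal mucin-2, with no kinase word. CL19963.Contig1, of the same cluster as CL19963.Contig2, had 4 and 53, and that cluster summed to 43 and 69, opposite in direction to the member and not past the rule.

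Calcium/calmodulin-dependent and AMPK-like kinases, which answer to calcium ions or to the energy state of the cell, had 2 higher and 5 lower unigenes of 7. CL6212.Contig3, matched by Swiss-Prot to the doublecortin-like kinase DCLK3 but by Nr to a TRP channel, had 874 control and 109 BDE-47 fragments (28.7 and 3.50 FPKM), an 8.19-fold lower level (6.70 to 10.1). Other contigs of its cluster ran the opposite way, with 6 and 85 fragments for CL6212.Contig2 and 14 and 107 for CL6212.Contig5. The cluster's fragments summed to 1098 and 398, a 2.82-fold lower level (2.51 to 3.17), but its summed FPKM of 44.7 and 34.6 was not past the rule. A further DCLK3-like unigene, Unigene67742, had 222 and 71 fragments. CL19493.Contig2, like the kinase CaMKIV that carries calcium signals to the nucleus, had 130 and 35 fragments, while its cluster had 185 and 132. Unigene6791, matched to a calcium-dependent kinase of the malaria parasite Plasmodium, had 207 and 87. The higher unigenes were CL19015.Contig1, like the kinase PSKH1, with 21 and 54 fragments, and CL8224.Contig2, a calcium-dependent kinase by Nr and calmodulin-4 by Swiss-Prot, with 74 and 159 against 214 and 291 for its cluster. The fragments of the PSKH1-like cluster summed to 102 and 101.

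By name the MAP kinase cascade held 2 unigenes, which differed in direction. KEGG gave a kinase of the cascade for lower members of other classes as well. It named MAP3K10 for CL12321.Contig1 and Unigene32478, and mos for CL17699.Contig1, CL17699.Contig2 and CL8003.Contig1. CL17014.Contig3, like MAP2K6, the kinase that activates p38 MAP kinases in mammals, had 13 fragments in the control library and 54 under BDE-47, a 4.07-fold higher level (2.19 to 8.12). Its cluster of 4 contigs had 162 and 328 fragments, a log2 ratio of 0.97 just under the limit. Cluster sums were computed with library totals only. CL15977.Contig1, like the atypical MAP kinase MAPK15, had 96 and 39 fragments, and its cluster had 327 and 222.

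The STE20 kinases, which include upstream kinases of the Hippo and ion transport pathways, were lower in all 3 contigs, and in 2 of the 3 under median ratio scaling. CL5829.Contig2, like STK3, a Hippo pathway kinase that restrains growth, had 173 control fragments and 50 in BDE-47, a 3.53-fold lower level (2.57 to 4.94), while its cluster had 276 and 229. CL15592.Contig1 matched OSR1, an activator of salt cotransporters in mammals, by Swiss-Prot and the mitotic inhibitor wee1 by Nr, and had 290 and 118 fragments, against 590 and 363 for its cluster, which was not past the rule. Unigene32935, like the Dictyostelium kinase fray2 by Swiss-Prot but translation initiation factor 3 subunit A by KEGG, had 92 and 44, and its log2 ratio of -1.07 became -0.94 under median ratio scaling, no longer past the rule.

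The CMGC kinases, each of them unclustered, were lower in all 3 unigenes with library totals, in 2 under TMM and in 1 under median ratio scaling. Unigene33158, like DYRK2 of Drosophila, had 106 and 46 fragments and was 2.35-fold lower (1.65 to 3.40). The splicing-linked kinase PRP4 was matched by Unigene69000, with 475 and 240 fragments, and by Unigene68849, with 170 and 80. Both were no longer past the rule under median ratio scaling, at log2 ratios of -0.87 and -0.96. With library totals the CMGC values ranged from -1.19 to -1.01 on the log2 scale.

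Kinases of mitosis and cilia gave mixed values. The Nek4-like CL8965.Contig1 had 827 control and 326 BDE-47 fragments, and its 48.1 FPKM was the highest control level of the 113 members. It was 2.59-fold lower (2.28 to 2.95), and its cluster had 1311 and 891 fragments. CL11611.Contig3, named for Nek4 by Nr alone, had 86 and 39, against 990 and 632 for its cluster. Unigene733, like the Dictyostelium kinase nek3 by Swiss-Prot only and intestinal mucin-2 by KEGG, had 65 and 290 fragments and was 4.37-fold higher (3.33 to 5.81). Unigene33696, like VRK1, a nuclear kinase of chromatin and the cell cycle, had 394 and 144 fragments and was 2.79-fold lower (2.30 to 3.41).

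Among the atypical kinases, Unigene28735, like RIOK1, which is needed to mature the small ribosomal subunit, had 128 fragments in the control library and 274 under BDE-47, a 2.10-fold higher level (1.69 to 2.61). The alpha-kinases went the other way, with 419 and 98 fragments for the vwkA-like CL9171.Contig1 and 307 and 125 for CL13709.Contig1. Both of their clusters were not past the rule when summed, with 781 and 519 and with 401 and 253 fragments. Unigene51654, like the DNA damage kinase ATM, had 1 and 18 fragments, too few for the rule. Its 17.6-fold ratio has a counting interval of 2.78 to 734.

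Cytoplasmic tyrosine kinases were 2 unigenes. CL500.Contig1, like HTK16 of Hydra, had 64 control fragments and 151 in BDE-47, a 2.31-fold higher level (1.71 to 3.15). CL7572.Contig3, like CSK, the kinase that holds Src family kinases in check, had 102 and 45 fragments, a 2.31-fold lower level (1.61 to 3.36). The HTK16-like cluster summed to 201 and 237 fragments and the CSK-like one to 150 and 94, neither past the rule.

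Of the 12 unigenes named for receptor tyrosine kinases, 2 carried a kinase word outside Nr, and both matched Cad96Ca, a receptor kinase of Drosophila. CL10593.Contig2 had 613 control and 305 BDE-47 fragments, and CL10593.Contig1 had 88 and 26, while their cluster of 4 contigs had 1002 and 579 and was not past the rule. CL10593.Contig2 itself, at -1.02 on the log2 scale, was not past the rule under TMM (-0.96) or median ratio scaling (-0.89). The other 10 are the Tie-1-named EGF-repeat unigenes, with 2 higher, 7 lower and 1 not past the rule. The most abundant of these, CL16575.Contig1, which had no Swiss-Prot match, had 763 and 302 fragments. Of those past the rule the lowest was Unigene73007, with 96 and 5 fragments and a 19.6-fold lower level (8.12 to 61.8), and the highest was Unigene56168, with 3 and 26 and an 8.49-fold higher level (2.60 to 43.8). Unigene68496, under the floor for a call, had 13 and 0.

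The remaining 15 kinases, 5 higher and 10 lower, were mostly matched to Dictyostelium entries. The SBK1-like Unigene565, named for an SH3-binding kinase, had 201 fragments in the control library and 440 under BDE-47, a 2.14-fold higher level (1.81 to 2.55). CL19333, a cluster of 2 contigs like the Dictyostelium RGS domain kinase A, had 152 and 42 fragments on Contig1 and 44 and 126 on Contig2. The sum of that cluster, 196 and 168 fragments, was not past the rule. Unigene20457, like the Dictyostelium protein kinase 3 by Swiss-Prot but protocadherin-11 by Nr, had 170 and 62. It had no kinase word in COG, KEGG or GO. CL8003.Contig1, like the Dictyostelium kinase mkcD by Swiss-Prot and wee1 by Nr, had 101 and 27, while its cluster had 392 and 363. CL717.Contig6, whose Swiss-Prot name is WNK2, a kinase of ion transport, had 1 and 45 fragments. The 7 contigs of its cluster summed to 5 and 11237, with most of both sums on contigs that the authors also called but that are not members. CL717.Contig6 is an uncharacterized protein by Nr, and was the member with the largest log2 ratio, 4.70.

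**Figure D3:**
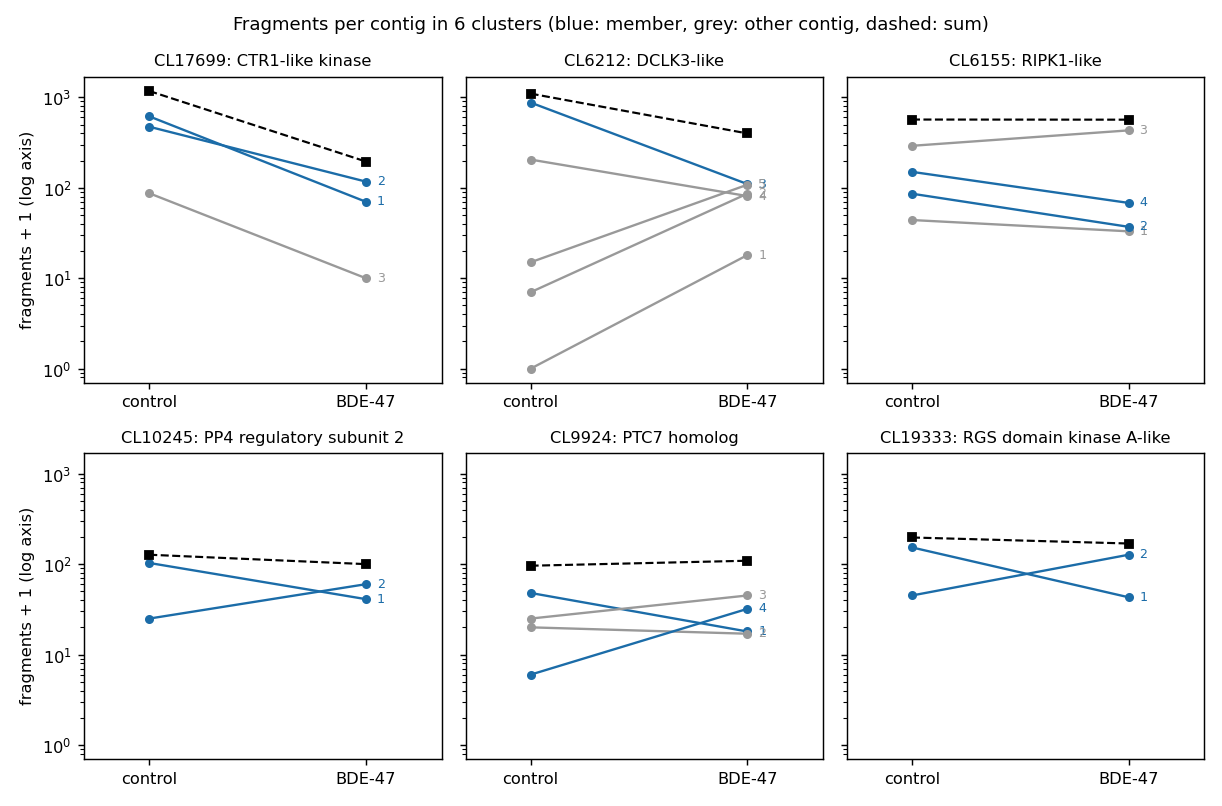
Fragments plus 1 (log axis) of every contig in 6 clusters that hold members, in the control and BDE-47 library, with members in blue, other contigs in grey, numbers for the contigs and the cluster sum as black squares on a dashed line. All contigs of CL17699 fall from left to right, while contigs cross in CL6212, CL10245, CL9924 and CL19333; the clusters were picked after their values were seen.

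Serine/threonine phosphatases, whose catalytic subunits are steered by many regulatory subunits, had 5 higher and 4 lower unigenes of 10, with sums of 850 and 839 fragments. CL2519.Contig2, like the B55 alpha regulatory subunit that directs phosphatase 2A to its substrates, had 76 control fragments and 274 in BDE-47, a 3.53-fold higher level (2.73 to 4.61). Its cluster was also higher, with 173 and 375 fragments, though its summed FPKM of 9.25 and 15.2 was not past the rule. CL16591.Contig3, like the myosin phosphatase targeting subunit MYPT1, had 53 and 120 fragments against 227 and 245 for its cluster. CL17789.Contig1, like the phosphatase 6 regulatory subunit 3, had 218 and 94 against 357 and 233. The PNUTS-like CL8665.Contig1, named for a nuclear targeting subunit of phosphatase 1, had 126 and 64 fragments and a log2 ratio of -0.98, which did not pass the rule.

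Unigenes with the same name differed in direction. CL10245.Contig1, like the phosphatase 4 regulatory subunit 2, had 102 control and 40 BDE-47 fragments, and CL10245.Contig2 had 24 and 59, so that their cluster of these 2 contigs had 126 and 99. The PTC7 homolog, a mitochondrial phosphatase in yeast and mammals, was matched by 4 unigenes. Unigene67681 had 170 and 59 fragments and Unigene24496 had 29 and 81. CL9924.Contig1 had 47 and 17 and CL9924.Contig4 had 5 and 31, in a cluster that summed to 95 and 108. The 4 unigenes together had 251 and 188 fragments.

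Dual specificity phosphatases act on tyrosine as well as serine or threonine, and several switch off MAP kinases. The DUSP4-like CL5274.Contig1, named for a nuclear phosphatase of ERK, had 139 fragments in the control library and 306 under BDE-47, a 2.16-fold higher level (1.76 to 2.65), while its cluster had 596 and 668. The DUSP3-like Unigene30998 had 62 and 136. CL2678.Contig2, like DUSP11, a phosphatase of RNA, had 320 and 84 fragments and was 3.89-fold lower (3.05 to 5.01). Its cluster of 5 contigs was lower too, with 1078 and 548. The STYXL1-like CL11061.Contig1 had 198 and 57, against 372 and 347 for its cluster.

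Of 27 unigenes named for tyrosine phosphatases, 19 are EGF-repeat unigenes, and these had 7 higher and 11 lower. The other 8 included the PTPRK-like Unigene12891, a receptor-type phosphatase of cell contacts, with 783 control fragments and 334 in BDE-47, a 2.39-fold lower level (2.10 to 2.73). The PTPRT-like Unigene68452, the only PTPRT match by Swiss-Prot, had 239 and 111, and was not past the rule under median ratio scaling. CL9766.Contig3, like PTPN11, which passes growth factor signals on to Ras, had 80 and 24 fragments and was 3.40-fold lower (2.13 to 5.62), and its cluster had 94 and 48. In the PTPRJ-like cluster CL928, Contig4 had 34 and 103 fragments and Contig2 had 111 and 46, while the 10 contigs summed to 3012 and 3034. Unigene37990, the Drosophila phosphatase Lar by Nr and the cytokine receptor LIFR by Swiss-Prot, had 173 and 31 fragments. Unigene58218, a PTPRF-like unigene, had 9 and 39. The low molecular weight phosphatase-like Unigene66948 had 15 and 0 fragments, under the floor for a call. It was 5.11-fold lower if the BDE-47 library is given 3 fragments.

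Among the EGF-repeat unigenes named for phosphatases, contigs of 1 cluster again differed. The cluster CL19392, of 20 contigs, held 5 of them. CL19392.Contig19 had 29 control and 88 BDE-47 fragments and CL19392.Contig20 had 21 and 76. By contrast CL19392.Contig8 had 119 and 50, CL19392.Contig4 had 91 and 33, and CL19392.Contig15 had 22 and 0. The whole cluster had 934 and 751 fragments. CL5749.Contig17, in a cluster of 35 contigs, had 602 and 295 fragments, while the cluster had 4513 and 4379, and the contig was not past the rule under TMM or median ratio scaling. The lowest log2 ratio of the 113 members, -5.69, belonged to Unigene73870, with 24 and 0 fragments and a level at least 8.17-fold lower.

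The kinase partners were led by an AMPK subunit. CL9190.Contig1, like the beta-1 scaffold subunit of AMPK, the energy sensor that is active when ATP is low, had 394 fragments in the control library and 900 under BDE-47 (8.19 and 18.3 FPKM), a 2.24-fold higher level (1.98 to 2.52). Its cluster of 2 contigs had 1966 and 2398 and was not past the rule. CL11341.Contig1, like TAB1, the activating partner of the kinase TAK1, had 48 and 116 fragments against 319 and 307 for its cluster. CL9157.Contig1, like PACSIN2, a membrane-bending protein first named as a kinase substrate, had 241 and 84, against 396 and 224 for its cluster. Unigene12506, named by Swiss-Prot alone for a repressor of an inhibitor of the kinase PKR, had 83 and 32, and Unigene75782, named for it by Nr alone, had 16 and 0, under the floor for a call. Both NELL2-like unigenes, named by Swiss-Prot alone for a secreted protein that binds protein kinase C, were higher, Unigene52989 with 6 and 91 fragments and Unigene57842 with 8 and 43. By Nr, Unigene52989 is a hypothetical protein and Unigene57842 a protein of multiple EGF-like domains. Neither had a kinase word in COG, KEGG or GO.

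Because many contigs belong to clusters, contig values and cluster sums were set side by side for the whole set. The 113 unigenes comprised 49 unclustered unigenes and 64 contigs of 50 clusters, 47 of which had at least 2 contigs. Summed over all of their contigs, 2 of these 47 clusters were higher (CL717 and CL2519), 4 were lower (CL17699, CL6212, CL2675 and CL2678) and 41 were not past the rule. Of 60 member contigs past the rule in such clusters, 7 (11.7%) had a cluster sum past the rule in the same direction. For the other described contigs past the rule in clusters of at least 2 contigs, this held for 678 of 2044 (33.2%). Contigs past the rule in both directions stood in 13 of the 46 clusters (28.3%) that held a member and at least 1 contig past the rule. They stood in 1503 of all 8030 clusters (18.7%) of at least 2 contigs with a contig past the rule. The 8030 include clusters without a described called contig, which the 46 do not. These shares describe the 2 libraries, and contigs of a cluster are not independent of each other. Cluster size was not matched in these comparisons. The 13 clusters include the EGF-repeat clusters CL5749 (35 contigs), CL19392 (20), CL20367 (11), CL20342 (8) and CL20396 (5). The others had 2 to 10 contigs. Whether contigs of a cluster are isoforms, alleles or related genes was not analysed here.

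**Figure D4:**
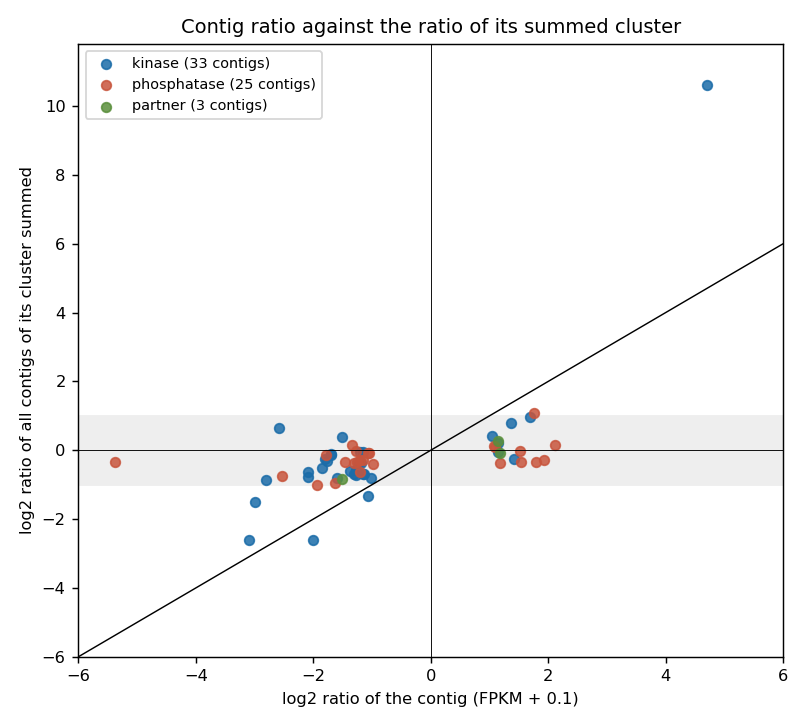
Log2 ratio of each member contig in a cluster of at least 2 contigs (x axis) against the log2 ratio of all contigs of that cluster summed (y axis), for 33 kinase, 25 phosphatase and 3 partner contigs; the diagonal marks equal ratios and the grey band sums within 2-fold. Most points lie in the band, with CL17699 below it and CL717, at 10.62, far above it.

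Other genes of the same pathways, which are not members, were counted from words in the descriptions of called unigenes. Phosphoinositide 3-kinase and phospholipase C had 3 higher and 6 lower of 10. Of the PI3K catalytic subunit alpha-like unigenes, CL11933.Contig2 had 648 and 175 fragments and CL7003.Contig1 had 164 and 538. All 4 guanylate cyclase unigenes were lower, and Unigene8189, the most abundant, had 276 and 96 fragments. Calmodulin and G protein subunits had 6 higher and 13 lower of 20. Cyclins, cyclin-dependent kinases and proteins named for them had 1 higher and 7 lower of 8, including the CDK9-like CL15877.Contig2 with 160 and 53 fragments, CDK9 being the kinase that releases paused RNA polymerase II. The adaptor and the sphingosine kinase lists held 1 unigene each, both lower, the latter being Unigene24638 with 193 and 87 fragments. All of these shares are to be read against 33.9% higher and 60.1% lower among the described called unigenes.

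Markers of cell types, likewise matched by words among called unigenes only, moved in both directions between the libraries. Digestive gland enzymes had 24 higher and 13 lower of 41, with summed levels of 609 FPKM (control) and 579 FPKM (BDE-47) and with 7 unigenes at 0 in the control and 1 in BDE-47. Mantle and shell words had 25 higher and 5 lower of 31 (232 and 1546 FPKM), with 4 unigenes at 0 in the control. Blood cell and immune words had 52 higher and 40 lower of 101 (729 and 1225 FPKM), with 4 at 0 in each library. Muscle words had 5 higher and 12 lower of 18 (117 and 77.7 FPKM), with 1 at 0 in the control and 2 in BDE-47, and ciliated cell words had 2 higher and 11 lower of 14 (71.0 and 39.3 FPKM). Testis words had 1 higher and 11 lower of 12 (433 and 831 FPKM), and ovary words had 12 higher and 7 lower of 22 (437 and 204 FPKM), with 10 at 0 in the control. Unigenes whose first Nr entry is a ciliate protein had 12 higher and 49 lower of 65 (546 and 303 FPKM), 4 at 0 in the control and 3 in BDE-47. Copepod entries had 5 higher and 2 lower of 13 (9.87 and 53.2 FPKM), with 10 at 0 in the control, and no entry matched the words for algae, plants, fungi or bacteria. The 3 ciliate entries among the members were CL259.Contig1, Unigene74458 and Unigene27883. Unigene74458, like a regulatory subunit of protein kinase A, had 43 and 6 fragments, and Unigene27883, like the scaffold RACK1, had 46 and 11. CL259.Contig1, like protein kinase 4 by Swiss-Prot but a xylanase by Nr, had 36 and 100. The other contig of its cluster, CL259.Contig2, had 21 and 2. The cluster, not past the rule, had 57 and 102 fragments but a summed level of 6.66 and 3.41 FPKM, so its direction depends on how the contigs are summed. The part of these cell types and organisms in the levels of the kinases and phosphatases was not tested.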

How the data were processed

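Per the labels' protocols, poly(A) RNA was fragmented, amplified by PCR and sequenced on an Illumina HiSeq instrument, and the submitters' processing notes name CASAVA 1.5. For the assembler, aligner, counter and test no name is given in the sources used here. In 2 tables the authors deposited counts of fragments, FPKM values, log2 ratios (an FPKM of 0 set to 0.001), p-values with FDR, and annotation match scores. Their FPKM was recomputed from the counts to within 5e-05.

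With 1 library per group no test was run and no p-value computed. The call needs a log2 ratio of 1 or more in size with a pseudocount of 0.1 FPKM, at least 20 fragments over both libraries and an exact 95% conditional binomial (Clopper-Pearson) interval excluding 1. Folds compare fragments divided by the library total. At 0 fragments a fold is computed with 3 fragments in that library, which is not the lower limit of an interval. Depth was 15.6 M (control) and 15.9 M (BDE-47) fragments. Cluster values sum all contigs with the same cluster number and were scaled to library totals only. Their log2 ratio uses the mean contig length.

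The members and lists were chosen with earlier results of these data known. Classes come from words in the Swiss-Prot name, then the Nr name, and the words were adjusted after names, not values, were read. Named were up to 3 highest and 3 lowest members per class with at least 100 fragments (20 where fewer than 2 had that many), the 5 members with most fragments and clusters with several members. Further unigenes, among them those under 100 fragments and all pathway unigenes, were named after their values were seen. The rule was tested on simulated counts. Scaling used edgeR 4.0.16 (TMM) as an alternative, and other steps used Python 3.11.15 with scipy 1.17.1. Alternatives changed the scaling, pseudocount, floor, fold, unit and membership. Some members and pathway genes are not reported here.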

Additional observations from a re-analysis of the deposited data

How the results depend on the processing

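No paired analysis was possible because each group has 1 library. TMM and median ratio scaling raised most log2 ratios by about 0.06 and 0.13. The rise was smaller or absent at 0 BDE-47 fragments, with Unigene73870 at -5.69 under median ratio scaling too. Neither moved the counts of members, kinases or phosphatases by over 1.5 times (34 members higher under each, 69 and 64 lower). Small classes moved more, with lower CMGC kinases going from 3 to 1 under median ratio scaling. The counts of higher and lower members, 34 and 73, became 9 and 18 at a fold of 4, 18 and 35 with cluster sums (over 99 clusters and unclustered unigenes), 17 and 34 with FPKM summed by cluster, an alternative chosen after seeing the data, and 14 and 32 with a kinase or phosphatase word in both names. Higher members also fell to 18 at a pseudocount of 1, 17 at a floor of 100 fragments and 20 with 1 unigene per description. Higher and lower kinases, 14 and 46, became 6 and 28 at a pseudocount of 1, 4 and 12 at a fold of 4, 8 and 23 with cluster sums, 4 and 20 with the word in both names, and 6 and 24 with it in COG, KEGG or GO (added later), with 7 higher at a floor of 100. Higher and lower phosphatases, 16 and 23, became 3 and 5, 8 and 9, 8 and 10, and 9 and 11 under the last 4 of those settings, with 9 higher at a pseudocount of 1, 8 at the floor of 100 and 6 with 1 unigene per description. Lower unigenes outnumbered higher ones in all of these pairs. They also did so among the described called unigenes, of which 33.9% were higher and 60.1% lower. That background was not recomputed under these settings. Of 58 named log2 ratios, 23 stayed within their counting interval with cluster sums. All of these but CL11611.Contig3 were unclustered or the only contig of a cluster, so their sum was their own value. Cluster sums moved another 30 and turned 5 negative, CL19015.Contig1 to -0.04, CL11341.Contig1 to -0.08, CL19333.Contig2 to -0.25, CL19392.Contig19 to -0.34 and CL928.Contig4 to -0.02. The cluster sums hold more contigs, and no other cause was tested. At 20 fragments the counting intervals span several fold, so low members carry little weight.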
